A study of Mus musculus with 20 samples.

Results

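The histone cluster genes encode the histones that a cell needs in bulk when it copies its DNA. They were taken as the protein-coding genes of GENCODE M21 whose symbols carry the cluster names Hist1 to Hist4 followed by a histone type, found by Ensembl gene ID. Of 67 such genes, 54 had an ID among the 37991 counted IDs, and the other 13 were not analysed here. The 54 were 6 linker (H1) genes and 48 core genes, namely 16 H2A, 13 H2B, 7 H3 and 12 H4 genes. By position 43 lay in the Hist1 cluster on chromosome 13, 9 in the Hist2 cluster on chromosome 3 and 2 in the Hist3 cluster on chromosome 11.

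Core histones form the octamer that DNA wraps around, and linker histones bind the DNA where it enters and leaves that particle. Most histone cluster mRNAs are made during S phase and end in a stem-loop in place of a poly(A) tail. The stem-loop is bound by the protein Slbp, which acts in the 3′ processing, translation and stability of these mRNAs. Some genes of the clusters can also end at a downstream poly(A) signal, and a few, such as Hist1h1t, Hist1h2ba and Hist1h2aa, are known for their expression in the testis.

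The libraries came from mouse embryonic stem cells (ESCs) in which the gene for Cnot3, a subunit of the CCR4-NOT deadenylase, can be deleted. KO cells had received 0.1 µM 4-hydroxytamoxifen (4OHT) and WT cells DMSO, and the strain label of all libraries was C57BL/6. Total RNA and RNA from polysomes were taken on day 3 of 4OHT, and on day 2 actinomycin D, which blocks transcription, was added at 10 µg/ml and total RNA was taken after 0, 4 and 8 h. Each of the 10 groups (KO and WT for total RNA, for polysomes and for each of the 3 times) held 2 biological replicates, 20 libraries in all. The day-3 WT libraries carry the source label E14Tg2a, an ESC line, and the other libraries Cnot3 cKO ESCs, whereas in the design text the WT cells are the conditional line given DMSO. Line and genotype therefore cannot be told apart on day 3. What drives the recombinase was not stated in the labels.

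Gene counts per library came to 27664391 to 35170012 in total RNA, 13832829 to 16688555 in polysomes and 14513891 to 33262905 in the actinomycin D series. Cnot3 itself had 7.23 and 8.05 CPM (reads scaled to the sum of gene counts in the library) in KO total RNA, against 37.4 and 39.6 CPM in WT total RNA. Of 9 ESC markers tested in total RNA 7 fell and 0 rose, with a summed level of 3400 to 3584 CPM in KO and 6527 to 7131 CPM in WT after TMM scaling, which corrects library size for composition. Of 8 trophectoderm markers 7 rose (summed 525.5 to 546.7 CPM in KO, 105.9 to 116.8 CPM in WT), of 8 feeder fibroblast markers 5 rose (43.6 to 48.5 CPM in KO, 24.0 to 27.4 CPM in WT) and of 5 primitive endoderm markers 1 rose (37.0 to 41.6 CPM in KO, 44.5 to 47.6 CPM in WT). None of these markers was at 0 in a total library. These shifts stand beside every KO to WT difference below, their part in it was not tested, and in bulk RNA fewer cells of a type and less RNA per cell cannot be told apart.

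The 3′ ends were read first, since they separate these genes from most others. The histone stem-loop motif, searched on the sense strand of annotated transcripts, occurred in 38 of the 54 genes (70.4%), against 136 of 21901 genes with a protein-coding transcript (0.621%). A poly(A) signal hexamer (AATAAA or ATTAAA) in the last 40 bases of a transcript occurred in 16 of 54 (29.6%), against 76% of all genes, and 13 genes held both. The sites of the genes that the results turn on are shown from GENCODE M21 transcripts on GRCm38, with the stem-loop in capitals.
Hist1h1c, chr13:23739507-23739532, plus strand: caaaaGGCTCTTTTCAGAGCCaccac
Hist1h1t, chr13:23696520-23696545, plus strand: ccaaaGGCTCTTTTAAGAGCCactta
Hist1h2ae, chr13:23570663-23570688, minus strand: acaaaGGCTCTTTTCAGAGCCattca
Hist3h2ba, chr11:58949344-58949369, plus strand: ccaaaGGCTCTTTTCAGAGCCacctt
Hist1h3e, chr13:23561898-23561923, minus strand: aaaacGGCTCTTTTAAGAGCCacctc
Hist1h4d, chr13:23581945-23581970, plus strand: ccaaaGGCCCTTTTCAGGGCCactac
Hist1h4i, chr13:22040961-22040986, minus strand: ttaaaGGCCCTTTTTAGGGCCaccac

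Downstream of the stem-loop, 5 of these genes have annotated transcripts that run on to a hexamer, here in capitals.
Hist1h1c, chr13:23740332-23740357, plus strand: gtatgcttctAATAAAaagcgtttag
Hist1h1t, chr13:23696689-23696714, plus strand: tttacgccagAATAAAggtcaccatt
Hist1h2ae, chr13:23570529-23570554, minus strand: cagcttctccAATAAAtgggtcaatt
Hist3h2ba, chr11:58949497-58949522, plus strand: taatggtattAATAAAtttggttcaa
Hist1h4i, chr13:22040641-22040666, minus strand: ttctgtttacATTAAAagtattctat

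Promoters of 1 abundant gene of 4 types are shown because most genes of every type were lower in KO total RNA. RefSeq windows from 250 bases before to 50 after the start (GRCm38.p6) were matched for 50 of the 54 genes (51 windows, since Hist1h2be has 2) and searched on both strands. The octamer ATTTGCAT was in 7 of 16 H2A and 5 of 12 H2B windows and in 0 of 6 H1, 0 of 6 H3 and 0 of 11 H4 windows, against 1.74% of 32851 windows of all genes. AAACACA, the H1 box, was in 5 of 6 H1 windows, against 7.18% of all. CCAAT was in every H1, H2A, H2B and H3 window and in 3 of 11 H4 windows, against 37.4% of all, and TATAAA was in 4 of 6 H1, 11 of 16 H2A, 7 of 12 H2B, 1 of 6 H3 and 8 of 11 H4 windows, against 13.6% of all. The capitals mark these motifs, in either orientation.
Hist1h1c, chr13:23738557-23738856, plus strand: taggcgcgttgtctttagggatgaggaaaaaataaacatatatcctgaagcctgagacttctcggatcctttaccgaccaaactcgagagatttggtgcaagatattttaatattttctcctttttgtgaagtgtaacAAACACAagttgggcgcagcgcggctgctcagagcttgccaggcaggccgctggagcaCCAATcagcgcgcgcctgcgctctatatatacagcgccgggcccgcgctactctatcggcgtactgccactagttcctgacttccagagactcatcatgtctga
Hist1h2bb, chr13:23746484-23746783, plus strand: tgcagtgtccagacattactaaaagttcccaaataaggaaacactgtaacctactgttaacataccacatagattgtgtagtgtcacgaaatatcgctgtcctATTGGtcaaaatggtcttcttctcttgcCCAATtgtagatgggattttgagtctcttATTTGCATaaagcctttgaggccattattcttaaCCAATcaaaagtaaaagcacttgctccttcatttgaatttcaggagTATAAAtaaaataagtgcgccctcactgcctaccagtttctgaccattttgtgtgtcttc
Hist1h3e, chr13:23562336-23562635, minus strand: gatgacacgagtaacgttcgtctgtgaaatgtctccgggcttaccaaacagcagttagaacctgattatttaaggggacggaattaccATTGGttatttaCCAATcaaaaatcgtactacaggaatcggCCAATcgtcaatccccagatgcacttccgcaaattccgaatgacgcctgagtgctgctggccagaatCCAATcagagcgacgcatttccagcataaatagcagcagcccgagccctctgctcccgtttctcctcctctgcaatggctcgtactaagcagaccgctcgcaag
Hist1h4d, chr13:23581318-23581617, plus strand: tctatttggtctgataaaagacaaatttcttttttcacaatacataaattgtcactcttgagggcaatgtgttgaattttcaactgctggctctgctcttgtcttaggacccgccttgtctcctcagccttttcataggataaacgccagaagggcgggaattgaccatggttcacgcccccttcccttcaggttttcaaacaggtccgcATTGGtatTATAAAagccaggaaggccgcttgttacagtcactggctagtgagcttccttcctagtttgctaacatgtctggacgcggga

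The summed level of the 54 genes set the kinds of library apart. It was 7009 and 6569 CPM in KO total RNA and 11646 and 9092 CPM in WT total RNA. In polysomes it was 41.5 and 48.8 CPM in KO and 24.7 and 35.6 CPM in WT, or, TMM-scaled, 34.5 and 40.05 CPM in KO and 24.7 and 35.0 CPM in WT, where the groups overlapped. In the 12 libraries of the actinomycin D series, also labelled total RNA, it was 16.6 to 29.1 CPM. The levels in those 12 libraries and in polysomes were thus far below those of the day-3 total libraries, and the labels do not say whether RNA was selected by poly(A) in any of them. Other RNAs that carry no poly(A) tail showed the same split: Rn7sk, a small nuclear RNA, had 18076 and 15920 CPM in KO total RNA and 22970 and 17087 CPM in WT total RNA, and at most 33.3 CPM in any other library.

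**Figure D1:**
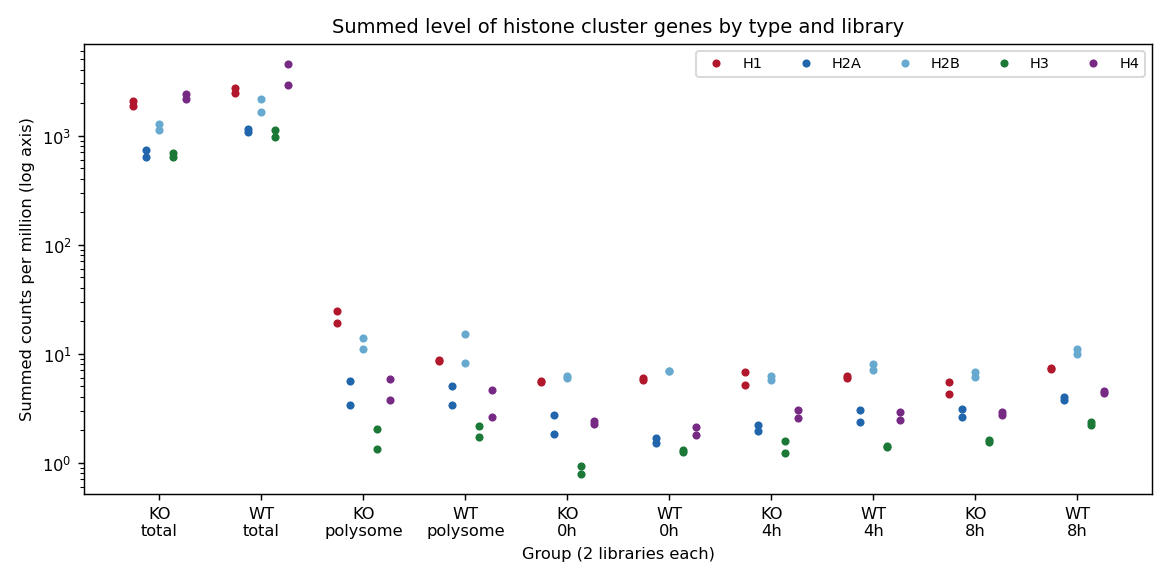
Summed CPM of the H1, H2A, H2B, H3 and H4 genes in each of 20 libraries on a log axis, 1 point per library, with KO left of WT. The day-3 total libraries lie far above the others: all types together reach 6569 to 11646 CPM there and at most 48.8 CPM elsewhere.

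In total RNA on day 3 the core histones and most linker histones were lower in KO. The summed level of the H4 genes was 2279 ± 157 CPM in KO and 3707 ± 1100 CPM in WT (SD, n = 2 each), and that of the H2B genes 1188 ± 108 CPM in KO and 1913 ± 381 CPM in WT. H2A genes summed to 689 ± 74.0 CPM in KO and 1120 ± 52.0 CPM in WT, H3 genes to 660 ± 44.2 CPM in KO and 1046 ± 106 CPM in WT, and H1 genes to 1973 ± 165 CPM in KO and 2584 ± 166 CPM in WT. The 2 libraries of each group did not overlap with those of the other for any type, and these sums have no test. Per kilobase of coding sequence, the counted H4 genes together had the highest level of the 5 types in each total library. It was 7733 and 7016 in KO against 14515 and 9480 in WT. The genes without an ID match fell unevenly by type, so this order holds for counted genes only. Hist4h4 was the only H4 gene among them, whereas Hist1h3d, Hist1h3f, Hist1h3g, Hist1h3h and Hist1h3i were H3 genes.

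With edgeR's quasi-likelihood test and Benjamini-Hochberg adjustment over 18303 genes, 49 of the 54 genes could be tested in total RNA, 40 were lower in KO and 2 were higher. Of all genes tested, 12.2% were called lower and 16.0% higher. The median log2 change of the 49 was -0.94, against 0.01 for all genes. With library totals alone all genes shifted by 0.26, and the median of the 49 lay 0.95 below that of all genes under both scalings. The number called depended on single libraries, for all genes as well as for these. It was 14 lower and 1 higher without WT total replicate 1, 17 and 0 without KO total replicate 2, 24 and 0 without KO total replicate 1, and 38 and 0 without WT total replicate 2. Of all genes, 3.48%, 3.47%, 3.34% and 6.15% were called lower in these 4 fits, in the order given, and the median of the histone genes stayed between -1.17 and -0.77. A fit of only the 4 total libraries called 26 lower and 3 higher, against 28.9% and 28.9% of all 18924 genes. WT total replicate 1 had the highest summed histone level and the highest Rn7sk level of the 4.

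Among the linker genes, 4 of 6 were lower, with smaller changes than most core genes. Hist1h1a, the most abundant histone gene in total RNA by CPM, had 578 and 504 CPM in KO and 973 and 792 CPM in WT (TMM-scaled, as are all gene levels from here on unless called raw). Its log2 change was -0.71 ± 0.17 (SE), with an adjusted p of 0.0123 by edgeR. Hist1h1c had 323 and 294 CPM in KO and 559 and 500 CPM in WT (log2 change -0.78, adjusted p = 0.00592 by edgeR), Hist1h1d 482 and 426 CPM in KO and 830 and 757 CPM in WT, and Hist1h1b 373 and 333 CPM in KO and 566 and 519 CPM in WT. Hist1h1e was not called: 342 and 298 CPM in KO, against 398 and 356 CPM in WT, and its change of -0.24 reversed to 0.03 with library totals alone. It overlaps Hist1h2be and Gm11398 in GENCODE M21, so some of its reads may have been tallied as ambiguous and left out of the gene counts.

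Every H3 gene tested (5 of 7) was lower, as were 11 of 13 tested H2A genes, 11 of 12 H4 genes and 9 of 13 H2B genes. The most abundant H4 gene, Hist1h4d, had 493 and 434 CPM in KO and 992 and 669 CPM in WT. Hist1h4k had 376 and 347 CPM in KO and 935 and 562 CPM in WT, and Hist1h4h fell by 1.10 on the log2 scale. Of the H3 genes, Hist1h3e had 168 and 208 CPM in KO and 403 and 345 CPM in WT, a log2 change of -0.99. The most abundant H2A gene, Hist1h2ak, had 121 and 137 CPM in KO and 284 and 245 CPM in WT. The most abundant H2B gene, Hist1h2bc, had 238 and 211 CPM in KO and 526 and 366 CPM in WT. The lowest change of all was that of Hist1h2ah, 14.9 and 17.6 CPM in KO and 37.6 and 37.5 CPM in WT, a log2 change of -1.21 ± 0.18 (SE). Among the next most abundant core genes, the log2 change was -1.01 for Hist1h2ab and -0.92 for Hist2h2ac (H2A), -0.97 for Hist1h2bb and -0.93 for Hist1h2bg (H2B), and -0.94 for Hist1h3b and -0.83 for Hist1h3a (H3), all called. In each of the genes given here by library the KO libraries lay below both WT libraries. Of all 54 histone genes 43 did so, and in 3 the KO libraries lay above. The share of all genes whose libraries separate in this way was not counted.

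The 2 genes called higher are known for testis expression. Hist1h1t, a testis linker histone, had 21.4 and 19.1 CPM in KO and 11.0 and 9.28 CPM in WT (log2 change 1.00, adjusted p = 0.0112 by edgeR). Hist1h2ba, a testis H2B, had 32.6 and 31.1 CPM in KO and 19.6 and 13.8 CPM in WT (log2 change 0.93, adjusted p = 0.0072 by edgeR). The call of Hist1h1t did not survive the loss of any single total library, with an adjusted p by edgeR of 0.0783 to 0.129. That of Hist1h2ba was lost without WT total replicate 2 (0.116), KO total replicate 1 (0.089) or KO total replicate 2 (0.0704). Hist1h2aa, the divergent H2A neighbour of Hist1h2ba, was not called at 0.32, and neither was Hist2h2be at 0.56.

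Medians by position lay close together within Hist1. The median log2 change was -1.03 for the 16 tested Hist1 genes below 23 Mb of chromosome 13 and -0.93 for the 27 above it. The 2 Hist3 genes stood apart at -0.05 (Hist3h2a) and -0.11 (Hist3h2ba), neither called, and that of Hist3h2ba reversed to 0.16 with library totals alone and to 0.14 without WT total replicate 1. Of the 8 divergent H2A and H2B pairs whose starts lie within 500 bases, 6 had changes within 0.13 log2 of each other, and Hist2h2ac at -0.92 against Hist2h2be at 0.56 differed most. The median was -0.94 for the 15 tested genes with a hexamer and -0.95 for the 34 without. For the 28 genes with at least 50% of their 50-base words unique among transcripts it was -0.86, and for the 21 tested genes below that it was -1.01. Hist2h2aa1, Hist2h2aa2, Hist2h3b and Hist2h3c1 have no unique 50-base word and had 0 counts in all 20 libraries, and each also overlaps another counted gene, so nothing can be said of their level.

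**Figure D2:**
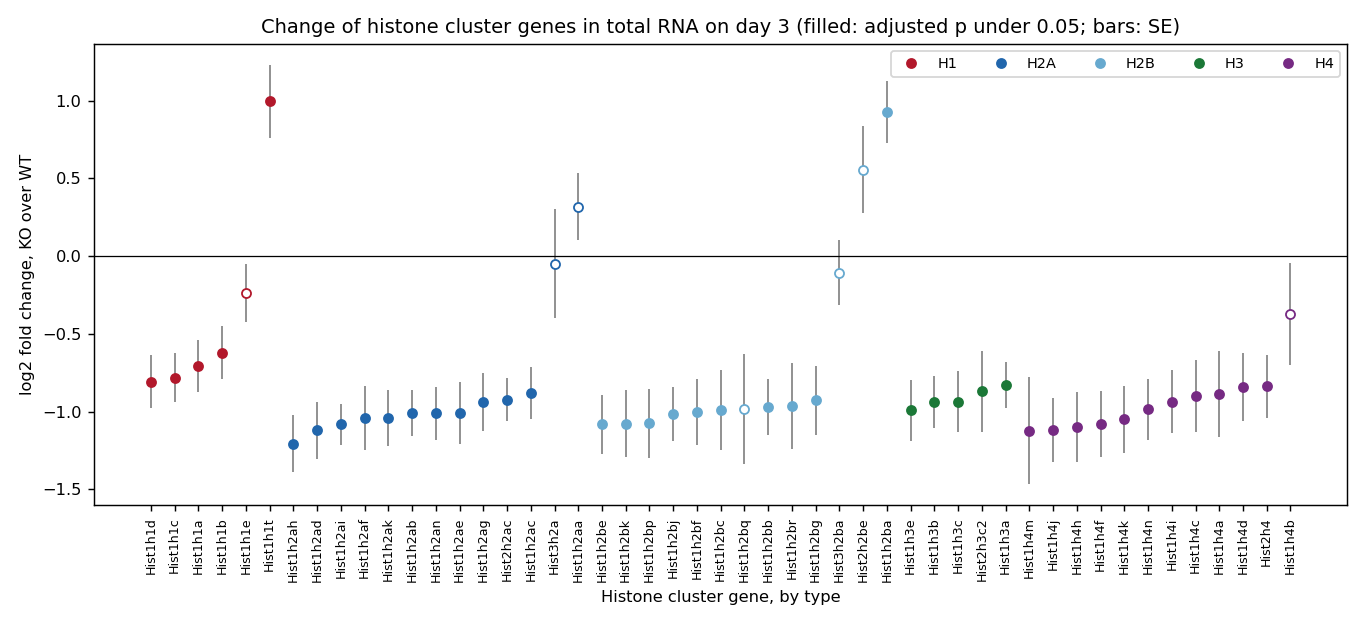
Log2 fold change, KO over WT, in total RNA on day 3 for the 49 histone cluster genes tested, grouped by type, with standard errors and filled points where the adjusted p was under 0.05. Most points lie near -1, with Hist1h1t and Hist1h2ba called higher near 1.

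In polysomes a single linker gene carried most of the difference between KO and WT. Hist1h1c had raw counts of 217 and 310 in KO and 73 and 78 in WT, or 12.7 and 15.8 CPM in KO and 5.28 and 4.60 CPM in WT. Its log2 change was 1.53 ± 0.19 (SE), with an adjusted p of 0.000307 by edgeR, and it kept that call under every alternative run. The summed H1 level was 21.8 ± 3.72 raw CPM in KO and 8.63 ± 0.169 raw CPM in WT (SD, n = 2 each). Without Hist1h1c it was 4.51 ± 0.907 raw CPM in KO and 3.65 ± 0.258 raw CPM in WT. The core genes together had 22.4 and 24.5 raw CPM in KO and 15.9 and 27.1 raw CPM in WT, and these groups overlapped.

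Of the 49 genes tested in polysomes 2 were called higher and 2 lower in KO, against 15.9% and 21.1% of all genes. The filter was run over total and polysome libraries together, and most of the 49 had few polysome reads. The counts over the 49 are therefore a description. In a fit of only the 4 polysome libraries 14 histone genes were tested, with 2 higher and 0 lower. Of all 15157 genes in that fit 1860 were higher and 1427 lower. With library totals alone, 4 of the 49 were higher and 2 lower, against 4547 and 2000 of all 18303 genes. Hist1h1t was the other gene called higher, with raw counts of 12 and 30 in KO and 5 and 2 in WT, and its adjusted p rose to 0.0702 without WT polysome replicate 2 and to 0.106 without KO polysome replicate 2. Hist1h2ag (1 and 2 counts in KO, 3 and 11 in WT) and Hist1h2bj (9 and 7 counts in KO, 15 and 21 in WT) were called lower. Both rest on few reads, and the call of Hist1h2bj was lost without any 1 of the 4 polysome libraries (adjusted p by edgeR 0.0648 to 0.212). That of Hist1h2ag was lost without WT polysome replicate 2 (0.377), KO polysome replicate 1 (0.132) or KO polysome replicate 2 (0.0954).

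The change of Hist1h1c in polysomes was set against its change in total RNA. Histone and Rn7sk levels differed widely between these kinds of library, so fraction and kind of library cannot be told apart here. The difference was 2.31 ± 0.25 log2 (SE), with an adjusted p of 0.0276 by edgeR. In this fit Hist1h1c was the only gene called higher among all 18303 (0.00546%), and 1 gene was called lower. The adjusted p was 0.124 to 0.318 when any 1 of the 4 total libraries or of the 2 KO polysome libraries was left out, while the difference stayed between 2.17 and 2.56. No other histone gene was called. Hist1h4i came next in p there, with a difference of 1.93 and an adjusted p of 0.22 by edgeR. Its raw polysome counts were 28 and 53 in KO and 11 and 23 in WT. DESeq2 called 30 of all 18303 genes higher in this difference, 2 of them histone genes, and 34 lower. With no filter, edgeR called 34 of 34955 genes higher and 6 lower.

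Relative to total RNA, the polysome libraries held few histone reads in both genotypes. Fraction and kind of library cannot be told apart in this comparison either. The summed raw CPM was 150 times lower in polysomes than in total RNA in KO and 344 times lower in WT. By type in KO the ratio was 474 for H4, 390 for H3, 90.7 for H1, 154 for H2A and 95.6 for H2B, and in WT it was 1019 for H4, 537 for H3, 299 for H1, 264 for H2A and 164 for H2B. Of the 49 genes tested, 48 were called lower in polysomes than in total RNA in KO and 48 in WT, against 28.7% and 26.7% of all genes, but these genes passed the filter through the total libraries and the counts are a description. Hist1h4n had the lowest difference in KO, -12.25 log2, and Hist1h4k in WT, -12.83 log2. Hist1h4k had raw counts of 3 and 3 in KO polysomes and 1 and 2 in WT polysomes, against 10271 and 10220 in KO total RNA and 26623 and 13979 in WT total RNA.

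The polysome level as a share of the total level varied widely among genes with and without an annotated poly(A) signal, and the difference between these sets was not tested. Of 15 genes with a hexamer and counts in total RNA, 7 had a raw polysome level above 1% of the total level in KO and 5 in WT; of 35 without one, 4 did in KO and 3 in WT. The median was 0.771% in KO and 0.491% in WT with a hexamer, and 0.142% in KO and 0.152% in WT without. Hist3h2a, an H2A gene of the Hist3 cluster, had 152% of its total level in KO polysomes and 63.6% in WT polysomes, from total levels of 1.38 raw CPM in KO and 1.19 raw CPM in WT. Hist2h2be had 42.7% in KO and 34.5% in WT, Hist3h2ba 8.15% in KO and 6.41% in WT, and Hist1h1c 5.66% in KO and 1.14% in WT. Hist1h4b, whose annotated transcript has a stem-loop and no hexamer, came second to Hist3h2a in both genotypes, at 48.1% in KO and 45.4% in WT, from 18 and 33 counts in KO total RNA and 35 and 27 in WT total RNA. It overlaps 4930558J22Rik, and Hist3h2a overlaps Trim17.

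**Figure D3:**
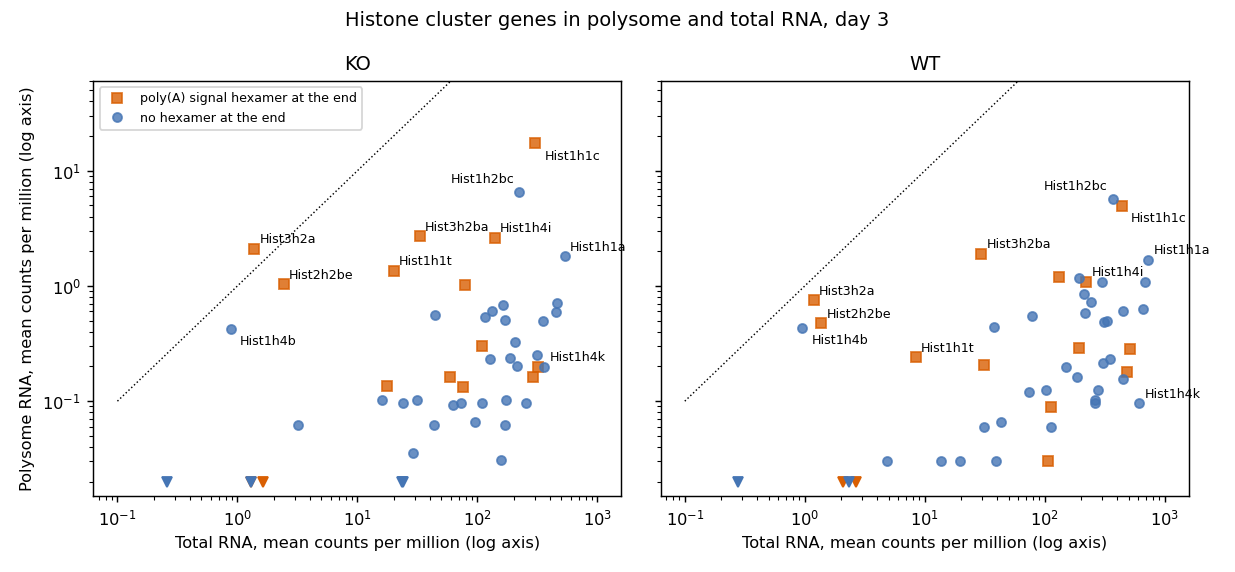
Mean raw CPM in polysome RNA against mean raw CPM in total RNA for each histone cluster gene with counts in total RNA, KO left and WT right, both axes log; squares are genes with a poly(A) signal hexamer at the end of a transcript, circles genes without, triangles genes with 0 polysome counts, and the dotted line marks equal levels. Hist3h2a, Hist2h2be and Hist1h4b lie nearest to the line, and Hist1h1c moves up in KO.

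The few histone reads in polysomes and in the actinomycin D series were spread over genes differently than in total RNA. Hist1h1a was among the leading 5 genes in each kind of library, and the other leading genes of total RNA were not shared. The 5 genes of highest level took 49.7% to 69.8% of the histone counts of the polysome libraries and were Hist1h1c, Hist1h2bc, Hist3h2ba, Hist1h4i and Hist1h1a. In the actinomycin D series, with the 0 h libraries included, 42.8% to 56.5% came from Hist1h2bc, Hist1h1c, Hist1h1a, Hist1h2ae and Hist1h2bj. In total RNA the leading 5, Hist1h1a, Hist1h4d, Hist1h1d, Hist1h4k and Hist1h4h, took 29.9% to 31.5%. Genes with a hexamer held 62.2% and 66.7% of the histone counts in KO polysomes and 41.6% and 36.9% in WT polysomes. In total RNA they held 21.5% and 21.1% in KO and 22.7% and 20.9% in WT. Hist1h1c, a gene with a hexamer, made up much of the gap between KO and WT polysomes. It alone had 217 of 590 and 310 of 787 histone counts in KO polysomes, and 73 of 341 and 78 of 594 in WT polysomes. Hist1h2bq, Hist1h2br and Hist1h4m had counts in total RNA and 0 in the other 16 libraries, which allows up to 3 counts, or 0.0902 to 0.217 CPM, per library.

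On day 2, before actinomycin D had acted, the summed histone level was 16.6 and 17.7 raw CPM in KO and 17.4 and 17.7 raw CPM in WT, and these overlapped. After TMM scaling it was 14.2 and 15.3 CPM in KO and 16.8 and 16.9 CPM in WT, and these did not. Of 19 genes tested, 4 were lower and 1 higher in KO, against 32.9% and 29.8% of 15823 genes tested by edgeR. With library totals alone, which shifted all genes by 0.15, 1 was lower and 1 higher, against 3396 and 6619 of all 15823 genes. Hist1h2bc had 61 and 55 raw counts in KO and 114 and 121 in WT, or 2.74 and 2.62 CPM in KO and 4.15 and 4.08 CPM in WT. Its log2 change of -0.62 ± 0.17 (SE, adjusted p = 0.00191 by edgeR) held under every alternative run. Hist1h1a (-0.64), Hist1h1b (-1.16) and Hist1h3c (-1.06) were lower, and Hist1h4i (1.00) was higher.

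These 4 calls were lost without 1 library or another. The adjusted p by edgeR reached 0.0821 for Hist1h1a without KO 0 h replicate 1, 0.0912 without KO 0 h replicate 2 and 0.218 without WT 0 h replicate 2. It reached 0.356 for Hist1h1b without KO 0 h replicate 1 and 0.225 without WT 0 h replicate 2. It reached 0.114 for Hist1h3c without KO 0 h replicate 1, 0.0814 without KO 0 h replicate 2 and 0.103 without WT 0 h replicate 1, and 0.124 for Hist1h4i without KO 0 h replicate 1 and 0.146 without WT 0 h replicate 2. Hist1h4i had 21 and 17 raw counts in KO and 14 and 11 in WT at 0 h.

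Over 8 h of actinomycin D the share of histone reads increased in WT libraries. Values here are relative to all other genes, so a positive slope means that the share of a gene's reads rose, not that its RNA was made. Of 19 genes tested, 5 had a positive slope in KO and 1 a negative one, against 31.6% and 36.3% of all genes, with a median of 0.10 log2 per hour. In WT 15 had a positive slope and 0 a negative one, against 35.0% and 38.8% of all genes, with a median of 0.17 log2 per hour. The median of all genes in WT was -0.01. With library totals alone, 1 rose and 1 fell in KO, and 11 rose and 0 fell in WT. Of all 15823 genes, 3461 rose and 6758 fell in KO with that scaling, and 3742 rose and 7680 fell in WT. The 5 in KO were Hist1h1a, Hist1h1b, Hist1h2ae, Hist1h3c and Hist1h4d, and the number was 0 without KO 0 h replicate 1, 3 without KO 0 h replicate 2 and 3 without KO 8 h replicate 1. Of the 19, 5 (Hist1h1e, Hist1h2ag, Hist1h2ai, Hist1h2ak and Hist1h4a) reached the count filter only with the help of the WT 8 h libraries, which favours a positive WT slope, so the counts over the 19 are a description. Of the other 14, 11 had a positive slope in WT. Hist1h4a, an H4 gene among the 5, had raw counts of 0 and 1 at 0 h, 4 and 10 at 4 h, and 18 and 16 at 8 h in WT.

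Among the better covered genes, the slopes in KO differed from gene to gene. Hist1h1a had 24 and 22, 43 and 30, and 46 and 38 raw counts at 0, 4 and 8 h in KO, and 40 and 55, 50 and 51, and 89 and 56 in WT. Its slope was 0.09 in KO and 0.12 in WT, both called. Hist1h2ae rose by 0.12 per hour in KO and by 0.25 per hour in WT, and at 8 h it had 1.17 and 0.909 CPM in KO and 1.72 and 1.86 CPM in WT. Hist1h2bc had a slope of 0.01 in KO, which was not called, and of 0.07 in WT, which was. At 8 h it had 2.43 and 3.23 CPM in KO and 5.42 and 6.86 CPM in WT, and the groups did not overlap at any time.

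Hist1h1c again went another way than the rest. It had 2.83 and 2.67, 1.52 and 1.98, and 1.86 and 0.863 CPM at 0, 4 and 8 h in KO. In WT it had 2.55 and 2.57, 2.12 and 2.31, and 2.45 and 2.36 CPM. Its slope was -0.13 ± 0.03 per hour in KO (SE, adjusted p = 0.00562 by edgeR) and held under every alternative run. In WT it was -0.01 and not called. The difference between the slopes was -0.12 with an adjusted p of 0.111 by edgeR.

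In the edgeR fit of all 12 libraries with time in hours, 0 of 19 histone genes passed the test of a slope difference between KO and WT, against 10.2% of all genes called higher and 8.78% called lower, and 0 did in DESeq2. This test misses many differences. In simulated data over all genes it recovered 27.3% of planted slope differences of 0.1 log2 per hour and 61.1% of those of 0.2. The changed genes were drawn from all genes, and recovery among genes with as few reads as these was not measured. Other edgeR fits called some lower in KO: 3 with time as a factor, 1 with the replicate block and 1 with protein-coding genes alone. With a filter of 1 CPM 1 of 8 was called. Of all genes, 3838 of 15823, 1157 of 15823, 1763 of 14273 and 1762 of 14149 were called lower, in that order. At an unadjusted p under 0.05 the fit of all 12 had 2, Hist1h4i with a difference of -0.17 and Hist1h1c. At 8 h the summed histone level was 18.9 and 18.1 raw CPM in KO and 27.5 and 29.1 raw CPM in WT. RNAs with no poly(A) tail rose in the same libraries: 5 of 7 tested had a positive slope in KO and 5 of 7 in WT. Of 16 such RNAs listed, only these 7 passed the count filter, some with almost no reads at 0 h. Rny3 had raw counts of 0 and 1 at 0 h and 23 and 12 at 8 h in WT. Passing the filter through late libraries favours a positive slope, so these counts are a description. Rn7sk had 5 and 25 raw counts at 0 h and 326 and 309 at 8 h in KO, against 11 and 12 at 0 h and 1107 and 707 at 8 h in WT. Its part in the histone slopes was not tested.

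**Figure D4:**
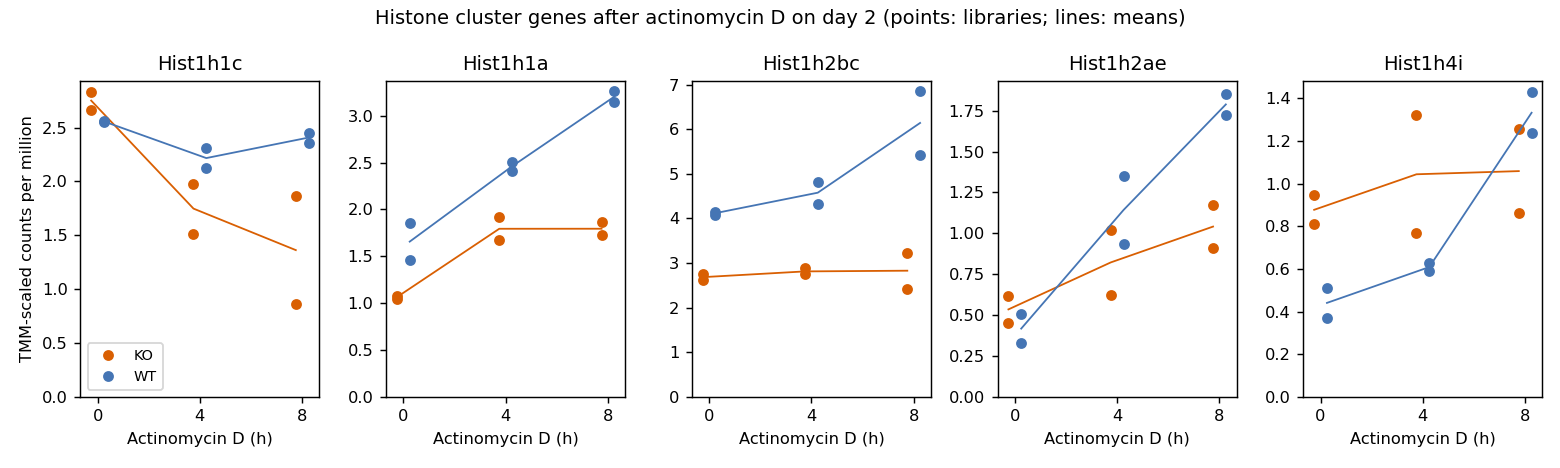
TMM-scaled CPM of 5 histone cluster genes at 0, 4 and 8 h of actinomycin D in KO (left of each pair) and WT, 1 point per library with lines through the means. Hist1h1c is lower with time in KO, and Hist1h1a, Hist1h2bc, Hist1h2ae and Hist1h4i are higher at 8 h than at 0 h in WT.

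Genes that handle histone mRNA were read alongside. In total RNA, of 22 tested factors of histone 3′ end processing and decay, 1 rose and 7 fell, with a median log2 change of -0.14. The lowest was Snrpf, an Sm protein of small nuclear ribonucleoproteins, at -1.64 ± 0.29 (SE, adjusted p = 0.0027 by edgeR). That change rests on few reads, with raw counts of 10 and 11 in KO and 31 and 31 in WT total RNA. In polysomes Snrpf had 314 and 350 raw counts in KO and 385 and 552 in WT, a log2 change of -0.74. Slbp was not called, with 142 and 127 raw CPM in KO and 103 and 102 raw CPM in WT. After actinomycin D, however, Slbp mRNA differed between the genotypes. It had 121 and 124, 113 and 112, and 106 and 102 raw CPM at 0, 4 and 8 h in KO, and 109 and 114, 54.2 and 59.6, and 18.2 and 17.8 raw CPM in WT. The slope difference was 0.28 ± 0.02 per hour (SE), with an adjusted p of 1.08e-05 by edgeR. In that comparison 6 of the 22 factors were called higher and 4 lower, among them Lsm10, a component of the U7 small nuclear ribonucleoprotein, and Eri1, an exonuclease that acts on the histone stem-loop, at 0.18 each.

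Replacement histones, which are made outside S phase as well as within it, were set beside the cluster genes. Of 10 tested in total RNA, 0 rose, 5 fell and 5 were not called, with a median of -0.45, against 12.2% of all genes called lower. Cenpa, the centromeric H3, fell by 0.75, H2afv by 0.73, H3f3a, a gene for H3.3, by 0.72 and H2afx by 0.69 on the log2 scale. Of those not called, H3f3b, the other H3.3 gene, had 1071 and 1010 raw CPM in KO and 873 and 832 raw CPM in WT, a log2 change of 0.03 after scaling, and H1fx had a change of 0.48. Of 28 genes of S phase and replication, 1 rose (Cdkn1a, 0.44) and 2 fell (Gins2, -0.77, and E2f1, -0.65), with a median of -0.32. Of 11 other RNAs without a poly(A) tail, 0 rose and 1 fell (Scarna2, -0.63), with a median of -0.50, and their part and that of the S-phase genes in the fall of the histone genes was not tested.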

How the data were processed

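The deposited values were counts of reads per gene, which the authors made with STAR 2.3.0e on mm9 and HTSeq, per the submitters' processing notes; HTSeq's version, its strand setting and the read length were not stated. The tallies that HTSeq adds for reads of no gene did not enter any fit. Reads aligned to several places were tallied above 0 in the total libraries alone. Gene IDs were looked up in GENCODE M21 (GRCm38) for symbols, transcripts and positions, so coordinates are of GRCm38 and not of the build counted on. Promoters came from RefSeq.

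The 8 day-3 libraries were fitted together, as were the 12 of the actinomycin D series, with edgeR 4.0.16 in R 4.3.3 (TMM scaling, robust quasi-likelihood F-tests, and filterByExpr at a count of at least 10). P values were adjusted by Benjamini-Hochberg over all genes tested, with a threshold of 0.05. Slopes are log2 per hour over 0, 4 and 8 h. Summed levels have no test. The fits were tested on simulated data, with changes planted in genes drawn at random from all genes tested. Of planted log2 changes of 1, 67% were recovered in total RNA, 65.6% in polysomes and 18.9% in the difference between them. Recovery among genes of few reads was not measured. P values rest on the spread between replicates, estimated over all groups fitted together and not over the compared groups alone. For slopes that spread also holds departures from a straight line. Intervals from counts cover counting error only.

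The members and lists were chosen with earlier results of these data known. Named genes were the H1 genes, the 3 most abundant of each core type, the leading genes of the polysome and actinomycin D libraries, genes called higher in total RNA, and the extremes of each comparison; of each list up to 4 of the smallest adjusted p. Slbp in total RNA, H3f3b, H1fx, Hist1h2ai, Hist1h1e's overlap partners, the divergent pairs and genes at 0 were named after their values were seen. Alternatives were RLE scaling, library totals, other filters, DESeq2 1.42.0, protein-coding genes alone, a replicate block, fewer libraries and time as a factor. H1 sums without Hist1h1c, and type sums without each library, were added after seeing the data. Features were read with Python 3.11.15 and figures drawn with matplotlib 3.10.9.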

Additional observations from a re-analysis of the deposited data

Results flagged for a closer look

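The change of Hist1h1c in polysomes differed from its change in total RNA by 2.31 log2, and the test of that difference was past the threshold in edgeR (adjusted p = 0.0276). The level was higher in both KO polysome libraries than in both WT polysome libraries. It was lower in both KO total libraries than in both WT total libraries. Fraction and kind of library cannot be told apart in this difference.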

How the results depend on the processing

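Over all settings, 292 summary values stayed near their reported size and 53 moved, and of the values of single named genes 849 kept direction and side of the threshold, 122 lost the call, 1 gained it and 3 reversed. With library totals alone, 4 histone genes were higher in polysomes, 1 was lower at 0 h and 1 had a positive KO slope. Of all genes, 4547 of 18303, 3396 of 15823 and 3461 of 15823 were, in that order. With the same scaling Hist1h1e (0.027) and Hist3h2ba (0.16) reversed in total RNA. With no filter, 4 were higher in polysomes and 2 in the difference between polysomes and total RNA, against 3314 and 34 of 34955 genes. A filter of 1 CPM left 8 histone genes in the actinomycin D fit. With it 2 were lower at 0 h, 2 rose in KO, 7 rose in WT and 1 had a lower slope in KO. Of all 14149 genes in that fit, 4862 were lower at 0 h, 4909 rose in KO and 5418 in WT. A lower slope in KO was called for 1762. DESeq2 gave 2 in the difference between polysomes and total RNA, 0 higher and 2 lower at 0 h, and 1 positive KO slope. Of all genes it called 30 of 18303 higher in that difference. At 0 h it called 2681 of 15823 higher and 5970 lower, and it gave 5273 positive KO slopes. Fits of only the 4 libraries compared gave 26 lower in total RNA and 0 lower in polysomes, where 14 genes were tested. Of all genes they called 5467 of 18924 and 1427 of 15157 lower. For a lower slope in KO than in WT, protein-coding genes alone gave 1 and time as a factor 3. Of all genes these fits gave 1763 of 14273 and 3838 of 15823. On TMM-scaled CPM the summed log2 changes in total RNA were -0.65 for H1, -0.96 for H2A and -0.93 for H3. The summed H1 change in polysomes, 1.33 with Hist1h1c, was 0.30 without it. Apart from fewer genes or libraries in the fit, the causes were not tested.

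Without 1 library, the number of histone genes was 0 to 2 higher and 14 to 41 lower in total RNA, 1 to 3 higher and 1 to 2 lower in polysomes, and 0 to 2 higher in the difference between them. It was 0 to 1 higher and 1 to 4 lower at 0 h, 0 to 7 for positive KO slopes, and 0 to 1 for lower slopes in KO. Hist3h2ba ranged from -0.43 to 0.14 in total RNA. Where a group was left with 1 library, its spread was taken to be that of the other groups. Groups share replicate numbers, but the labels do not say that a number marks a batch; residual correlations of same-numbered libraries were 0.13 in total RNA, 0.26 in polysomes and -0.11 to 0.10 in the actinomycin D series. With the replicate block 1 histone gene had a lower slope in KO, 3 were lower in polysomes and 40 lower in total RNA. Of all genes, 1157 of 15823, 4025 of 18303 and 2437 of 18303 were, in that order. In polysomes and in the actinomycin D series most histone genes had few reads, and only 19 could be tested in that series.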
